A study of Saccharomyces cerevisiae with 4 samples.

Results

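The budding yeast Saccharomyces cerevisiae carries several families of Ty elements, retrotransposons that copy themselves through an RNA intermediate, and the reading frames described here encode their Gag and Gag-Pol proteins. Members were the rows of the authors' deposited table whose identifier was on a list of 47 Ty Gag and Gag-Pol reading frames, and 33 of them had a row among 6484 features. These 33 comprised 26 Ty1 frames (24 Gag-Pol and 2 Gag), 6 Ty2 frames and 1 Ty3 frame. The other 14 listed frames had no row in the table used here, so only their R64 sequence is described and not their levels. All 47 names matched a locus tag of the R64 reference annotation, which holds 91 such frames. For YDR170W-A and YLR035C-A, which lie in no annotated element, the family was taken from the closest sequence. The list was drawn up with the difference between the strains already known, so strain differences of its members are given as a description.

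RNA was sequenced from 2 strains. One is labelled ΔYGP1, a derivative of strain BGL-6Kl labelled as lacking YGP1, and the other is BGL-6Kl itself, its parent. Both were grown without treatment in YPD, a rich glucose medium, at 30 °C and 200 rpm for 48 h, and each strain is represented by 2 libraries from what the submitters call biological replicates. The study asks which transcripts differed at a time when an activity it calls BGL, measured on cells, had come to differ, and both strains share the BGL-6Kl background, which the labels do not spell out further. The authors deposited 1 mean normalised read count per strain and feature. Since each mean is built from whole reads, the reads behind it could be worked out library by library for all 33 members, and libraries are called A and B by depth within a strain, since the replicate numbers of the labels are not attached to them.

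Recovered reads summed to 10154385 and 7419301 in libraries A and B of the ΔYGP1-labelled strain, and to 14987529 and 12550102 in libraries A and B of BGL-6Kl. Most of the most abundant features could not be recovered, so these sums understate the depth. YGP1 (YNL160W), the gene named as deleted, had a mean of 18171 in the strain labelled ΔYGP1 and 62469.5 in BGL-6Kl, so 29.1% of the parental level remained (log2 fold change -1.78, adjusted p = 2.88e-08 from the authors' deposited table). The authors called 626 features higher (9.65%) and 670 lower (10.3%) in the ΔYGP1-labelled strain at an adjusted p below 0.05, and the median log2 fold change of all features was 0.02. Between libraries A and B of 1 strain, the median absolute log2 difference was 0.28 in the ΔYGP1-labelled strain and 0.18 in BGL-6Kl, over 5266 features with at least 50 reads in every library.

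Ty1, Ty2 and Ty4 belong to the Copia-like (Pseudoviridae) retrotransposons and Ty3 to the Gypsy-like (Metaviridae) ones. Each full-length element has a long terminal repeat (LTR) at either end and a single major RNA that serves both as messenger and as template for reverse transcription. Gag forms the shell of the virus-like particle, in which the element's RNA is packaged and reverse transcribed. Pol supplies protease, integrase, reverse transcriptase and RNase H and is made only as a Gag-Pol fusion, when the ribosome slips into the +1 frame near the end of GAG. Transcription of Ty1 is known to respond to the mating and filamentation transcription factors Ste12 and Tec1 and to Gcn4, Gcr1, Rap1, Mcm1 and Tye7. New copies of Ty1, Ty2, Ty3 and Ty4 are inserted mostly upstream of genes transcribed by RNA polymerase III, above all tRNA genes.

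The frameshift site is shown because it is the feature that makes a Gag and a Pol frame into 1 listed gene. In R64 the heptamer CTTAGGC stood at the junction of the joined frames in 22 of 22 Ty1 members and 6 of 6 Ty2 members with an annotated junction, and GCGAGTT stood there in the Ty3 member. Its flanks of 10 bases separated the families and divided the Ty1 frames mainly into a pair of forms. The sequences below are those of the R64 genome, 5′ to 3′ on the coding strand, with the slippage heptamer in capitals.
Ty1, carried by 11 frames, in YNL054W-B at chrXIV:520748-520774 (plus strand): cgaccttcatCTTAGGCcagaaactta
Ty1, carried by 10 frames, in YMR045C at chrXIII:361309-361335 (minus strand): cgaccttcacCTTAGGCcaggaactta
Ty2, carried by 6 frames, in YOR192C-B at chrXV:708426-708452 (minus strand): cgaacttagtCTTAGGCcagcaacaga
Ty3, in YGR109W-B at chrVII:708452-708478 (plus strand): agcacgtaagGCGAGTTctaaccgatc
The remaining Ty1 frame carried a form that mixes the flanks of the other 2, cgaccttcatCTTAGGCcaggaactta.

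Start windows are printed for the 2 most abundant Ty1 frames, the Ty2 frame with the largest called fold change and the Ty3 frame, because Ty transcription starts in the upstream LTR and the known activator sites lie in and near it. Each window runs from 250 bases before to 50 bases after the first base of the frame in R64, 5′ to 3′ on the coding strand. Capitals mark TGAAACA, the core motif of Ste12, and CATTCC or CATTCT, core motifs of Tec1 that differ in their last base, on either strand (GGAATG is CATTCC read on the opposite strand). No 2 of these motifs overlapped in the windows shown.
YNL054W-B, Ty1, chrXIV:519206-519505 (plus strand): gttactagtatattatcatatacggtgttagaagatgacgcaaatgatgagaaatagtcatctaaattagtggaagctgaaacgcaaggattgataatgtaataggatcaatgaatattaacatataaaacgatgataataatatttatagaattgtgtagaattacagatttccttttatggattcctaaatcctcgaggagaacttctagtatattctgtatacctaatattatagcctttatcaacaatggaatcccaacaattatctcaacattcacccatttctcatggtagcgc
YMR045C, Ty1, chrXIII:362578-362877 (minus strand): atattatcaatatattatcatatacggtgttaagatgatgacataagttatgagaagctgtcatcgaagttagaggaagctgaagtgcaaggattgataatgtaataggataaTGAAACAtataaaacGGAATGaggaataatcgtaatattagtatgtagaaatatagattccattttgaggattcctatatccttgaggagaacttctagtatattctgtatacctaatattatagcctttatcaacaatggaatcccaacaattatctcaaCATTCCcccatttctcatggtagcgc
YOR192C-B, Ty2, chrXV:709683-709982 (minus strand): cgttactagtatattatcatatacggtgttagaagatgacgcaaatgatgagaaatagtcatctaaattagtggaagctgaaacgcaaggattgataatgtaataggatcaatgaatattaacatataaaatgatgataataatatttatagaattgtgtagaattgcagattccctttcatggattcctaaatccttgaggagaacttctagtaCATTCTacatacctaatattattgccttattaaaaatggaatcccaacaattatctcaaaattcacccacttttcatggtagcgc
YGR109W-B, Ty3, chrVII:707360-707659 (plus strand): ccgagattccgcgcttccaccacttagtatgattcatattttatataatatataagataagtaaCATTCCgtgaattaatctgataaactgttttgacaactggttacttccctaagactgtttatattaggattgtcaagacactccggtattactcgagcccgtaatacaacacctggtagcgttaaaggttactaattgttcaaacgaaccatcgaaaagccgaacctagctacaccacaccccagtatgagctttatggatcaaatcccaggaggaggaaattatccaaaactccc
The window of the Ty1 frame YNL054W-B differed from that of the Ty2 frame YOR192C-B at 16 bases (94.7% identity) but from that of the Ty1 frame YMR045C at 46 bases (84.7% identity). Counted from the first base of the frame as +1, YMR045C held TGAAACA at -137, CATTCC on the opposite strand at -122 and CATTCC again at +25. YOR192C-B held CATTCT at -35, YGR109W-B held CATTCC at -186, and none of the 3 motifs was in the YNL054W-B window.

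Over the members that start near the beginning of an annotated element, which leaves out 3 Ty1 frames, TGAAACA was in 7 of 23 Ty1, 0 of 6 Ty2 and 0 of 1 Ty3 windows, against 7.26% of the windows of 5910 other genes. CATTCC was in 16 of 23 Ty1, 1 of 6 Ty2 and 1 of 1 Ty3 windows (10.3% of other genes), and CATTCT in 0 of 23, 3 of 6 and 0 of 1 (19.3% of other genes). The motif TGACTC, bound by Gcn4, and CACGTG, the E-box bound by basic helix-loop-helix factors, of which Tye7 is one, were in none of the member windows, against 8.10% and 2.96% of other genes. All motifs were searched on both strands. Windows were placed by the start of the frame and not by the LTR. They need not cover the same part of the element in each family, and upstream sequence beyond them was not searched. Within the first 300 bases of the frame itself, CATTCT was in 23 of 23 Ty1, 6 of 6 Ty2 and 1 of 1 Ty3 frames (19.8% of 5619 other genes) and TGAAACA in none (7.51%). In that stretch CATTCC was in 2 of 23 Ty1, 1 of 6 Ty2 and 0 of 1 Ty3 frames (13.3% of other genes). TGACTC was there in 0 of 23, 1 of 6 and 1 of 1 (10.6%), and CACGTG in none (2.19%). These copies descend from one another, so their shared letters are not independent occurrences.

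Near-identical copies limit what can be said of single frames. In R64, a median of 4.79% of the 100-base stretches of a member in the table were found nowhere else in the genome (range 0 to 70.8%), against a median of 100% for 5636 other protein-coding genes. No such stretch existed in 5 of the 33 members, and 17 were at least 99% identical to another copy. Among the 14 listed frames without a row the median was 0%, 8 had no unique stretch and 13 were at least 99% identical to another copy. Identity was scored over the longer frame of a pair and only between frames of similar length. Differences in length thus lower it, and a shortened frame was not set beside its full-length relatives. How the authors treated reads that match several copies is not given in the sources used here, nor is the strandedness of the counting, and the strains' own Ty copies need not stand where R64 has them. Reads of single copies are therefore uncertain, and the number of element copies per genome and the RNA per copy cannot be told apart.

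**Figure D1:**
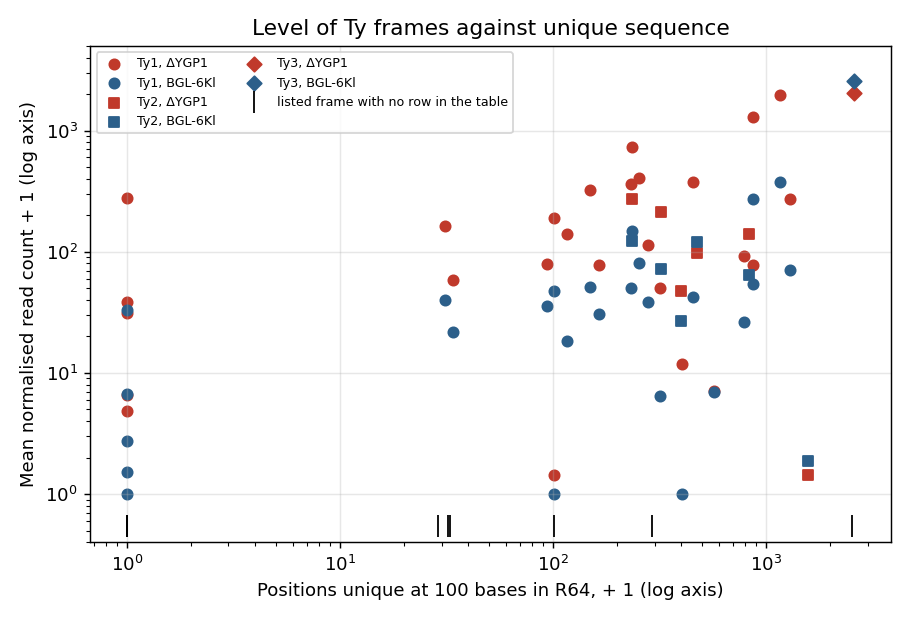
Number of 100-base stretches of each frame found once in R64, plus 1 (x axis, log scale), against its mean normalised read count plus 1 (y axis, log scale), in the ΔYGP1-labelled strain (red) and BGL-6Kl (blue), with black ticks for listed frames without a row. The 5 frames without a unique stretch sit at the left edge, and the Ty3 frame lies at the far right with the highest means, 2033 in the ΔYGP1-labelled strain and 2544 in BGL-6Kl.

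Across the 24 Ty1 Gag-Pol frames the number of unique 100-base stretches was set against the level and the log2 fold change. Spearman's rho with the level was 0.39 in the ΔYGP1-labelled strain and 0.43 in BGL-6Kl. With the log2 fold change it was -0.20. These are descriptions across frames that share libraries and sequence. With stretches of 50 and 150 bases the 3 coefficients were 0.35, 0.39 and -0.17, and 0.43, 0.44 and -0.16.

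Summed over the family, Ty1 reading frames were about 5-fold more abundant in the ΔYGP1-labelled strain than in BGL-6Kl. The 26 Ty1 frames together had 7549.95 and 6731 normalised reads in libraries A and B of the ΔYGP1-labelled strain, against 1891 and 986 in libraries A and B of BGL-6Kl. The ratio of the means, 7140.3 in the ΔYGP1-labelled strain and 1438 in BGL-6Kl, was 4.96 (log2 2.31). Both ΔYGP1-labelled libraries lay above both BGL-6Kl libraries, as they did in 33.2% of all recovered features. The sums rest on 8494 and 5363 reads in the ΔYGP1-labelled libraries and 2184 and 950 in the BGL-6Kl libraries. These 26 frames made up 0.0345% of all normalised reads of the table in the ΔYGP1-labelled strain and 0.00627% in BGL-6Kl. The shares leave out Ty1 frames that have no row or are not on the list. They also depend on how reads that match several copies were counted, which is not known. With 2 libraries per strain no exact permutation test can reach p = 0.05, so none was run on the sums.

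The Ty2 sum was also higher, to a smaller extent, and the Ty3 frame was not. The 6 Ty2 frames had 799 and 738 normalised reads in libraries A and B of the ΔYGP1-labelled strain, against 408 and 395 in those of BGL-6Kl, a ratio of means of 1.91 (log2 0.94). The Ty3 frame had 1803 and 2263 in the ΔYGP1-labelled libraries, against 2457 and 2631 in the BGL-6Kl libraries, a ratio of 0.799 (log2 -0.32). The libraries of the strains did not overlap in either family, with the ΔYGP1-labelled strain above for Ty2 and below for Ty3. Of all recovered features, taken singly, 33.2% were separated upward and 33.0% downward. Whether the families differ from each other in their ratios was not tested. All 33 members together averaged 9941 normalised reads in the ΔYGP1-labelled strain and 4384 in BGL-6Kl, a ratio of 2.27. In BGL-6Kl the single Ty3 frame thus held more counted normalised reads, not adjusted for length, than all listed Ty1 frames together. In the ΔYGP1-labelled strain Ty1 held the larger part. Of the 100-base stretches of the Ty3 frame 57.0% are unique, against a median of 4.79% over the members in the table. How reads that match several copies were counted is not known, so these counts do not rank the RNA of the families.

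**Figure D2:**
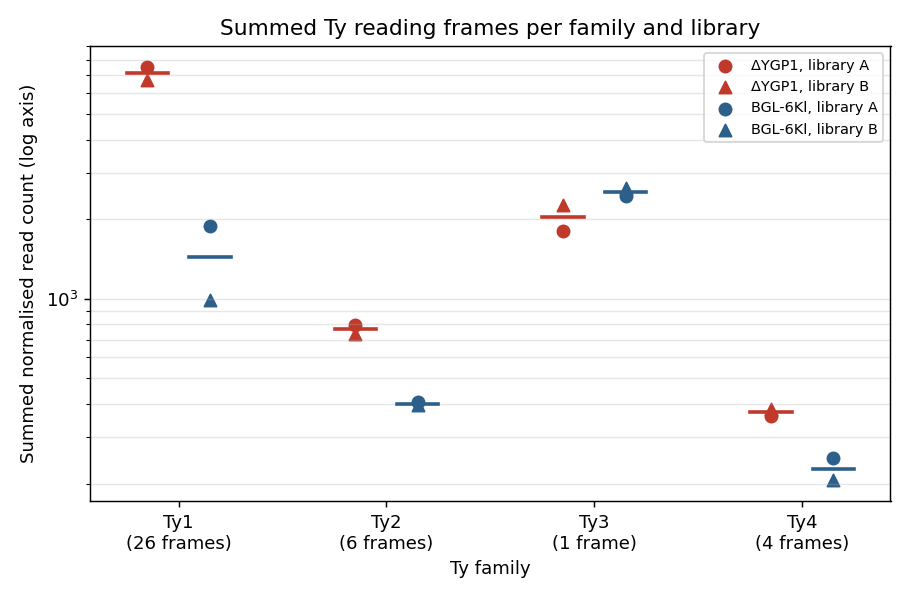
Summed normalised read count of the Ty1, Ty2, Ty3 and Ty4 reading frames in each of the 4 libraries (y axis, log scale), with libraries A (circles) and B (triangles) of the ΔYGP1-labelled strain left of those of BGL-6Kl and bars at the strain means. For Ty1 the ΔYGP1-labelled libraries stand at 7549.95 and 6731 against 1891 and 986, while for Ty3 they stand at 1803 and 2263, below 2457 and 2631.

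The parental libraries differed in their Ty1 level. Library A of BGL-6Kl held 1.92 times the Ty1 sum of library B, whereas in the ΔYGP1-labelled strain A held 1.12 times that of B. Of the 5266 features with at least 50 reads in every library, 24 (0.456%) had an excess of A over B in BGL-6Kl at least as large as the Ty1 sum, and 3 of these 24 were themselves Ty members. Another 42 features were as far apart with B above A, which gives 66 in either direction. This sets a sum over 26 frames beside single features. In the ΔYGP1-labelled strain 40.8% of these features were at least as far apart in the same direction as the Ty1 sum. A exceeded B in BGL-6Kl in 19 of 26 Ty1 frames, while B exceeded A in 4 and 3 had no parental read. Ty2 and Ty3 did not share this gap, with A over B ratios of 1.03 and 0.934 in BGL-6Kl, which 44.3% and 34.5% of features matched or passed in the same direction. In the ΔYGP1-labelled strain these ratios were 1.08 and 0.797, matched or passed by 46.3% and 18.7% of features. The parental Ty1 level therefore depends on the library, and what moved with it between the cultures was not tested. Without BGL-6Kl library A the log2 ratio of the Ty1 sum was 2.86, and without BGL-6Kl library B it was 1.92.

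**Figure D3:**
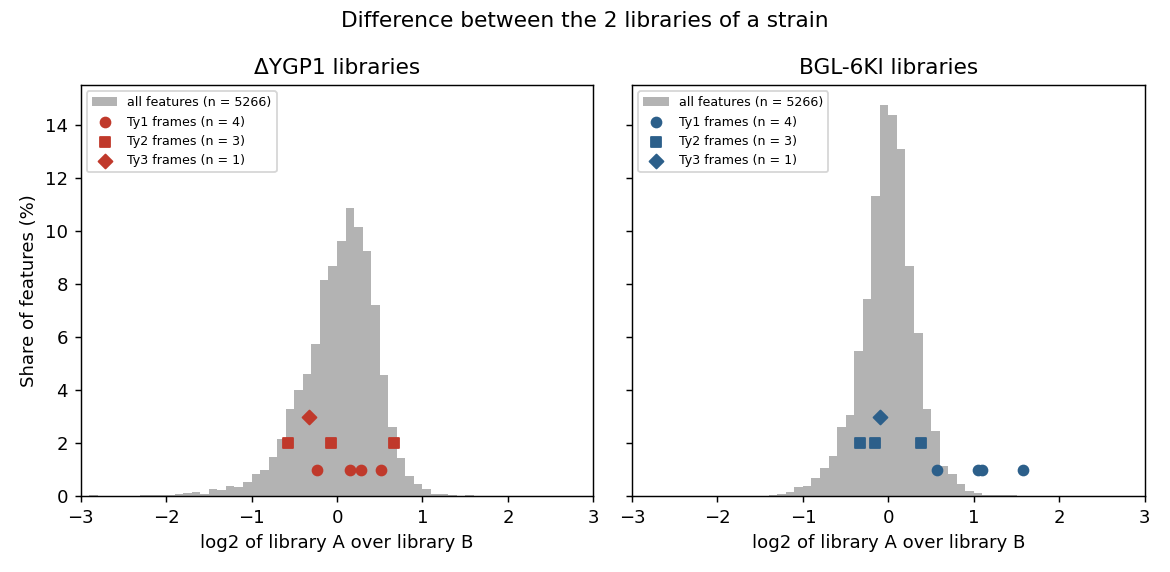
Distribution over features of the log2 ratio of library A to library B (x axis) within the ΔYGP1-labelled strain and within BGL-6Kl, as a percentage of the 5266 features with at least 50 reads in every library, with the 8 members among them marked by family at arbitrary heights. The Ty1 frames lie within the bulk of features in the ΔYGP1-labelled strain and at or beyond its right edge in BGL-6Kl, while the Ty2 and Ty3 frames lie within the bulk in both.

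By the authors' calls, 19 of 33 members rose in the ΔYGP1-labelled strain and 0 fell, against 9.65% of all features called higher. The calls comprised 17 of 26 Ty1 frames, 2 of 6 Ty2 frames and not the Ty3 frame. In 28 members both ΔYGP1-labelled libraries lay above both BGL-6Kl libraries, in 1 both lay below and in 4 they overlapped, against 33.2% and 33.0% of all recovered features that were separated upward and downward. Because the list was chosen with this contrast known, nothing is read from the excess over these background shares. At an adjusted p below 0.01 the authors' values gave 16 members higher (6.25% of all features), and 19 with at least a 2-fold change as well (6.71%). A limma fit to the 4 recovered libraries called 22 of 31 members tested higher and 0 lower, against 13.9% and 14.9% of all features. The median log2 fold change was 2.05 for all 33 members, 2.36 for Ty1 and 1.0 for Ty2. The value for all members was 2.70 without BGL-6Kl library A and 1.46 with a pseudocount of 10. With members that had no parental read set at the lower bound of their fold change, and YML039W left out, the median of the remaining 32 was 2.02, and that of the 25 Ty1 frames among them 2.32. The 6 members with a mean below 10 over both strains include no call, and the 27 others include all 19.

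**Figure D4:**
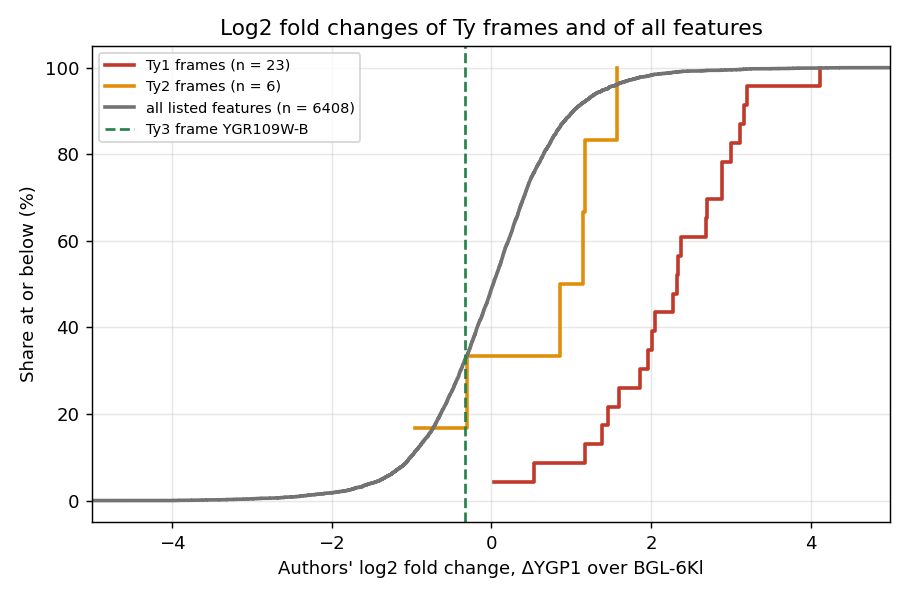
Authors' log2 fold change of the ΔYGP1-labelled strain over BGL-6Kl (x axis) against the cumulative share of features (y axis, percent), for Ty1 frames, Ty2 frames and all features with a parental mean above 0, with the Ty3 frame as a dashed line. The Ty1 curve lies to the right of that of all features, the Ty2 curve between them over most of its range, and the Ty3 frame at -0.32.

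The 3 most abundant copies carried about as much of the Ty1 sum as the other 23 together in each library. YNL054W-B had 2067 and 1857 normalised reads in the ΔYGP1-labelled libraries A and B, against 514 and 241 in the BGL-6Kl libraries A and B, and was 5.20-fold higher (adjusted p = 4.35e-12 from the authors' deposited table). It accounted for 27.4% and 27.6% of the Ty1 sum in the ΔYGP1-labelled libraries and for 27.2% and 24.4% in the BGL-6Kl libraries. With 22.5% of its 100-base stretches unique and 97.3% identity to its closest copy, it is among the more distinct Ty1 frames. YMR045C had 1534 and 1078 in the ΔYGP1-labelled libraries, against 364 and 175 in the BGL-6Kl libraries, and was 4.85-fold higher (adjusted p = 6.17e-05 from the authors' deposited table). YJR027W had 674 and 792 in the ΔYGP1-labelled libraries, against 219 and 73.7 in the BGL-6Kl libraries, and was 5.01-fold higher (adjusted p = 2.99e-09 from the authors' deposited table). In each of these 3 frames the strains did not overlap, and in each BGL-6Kl library A was the higher of the parental pair. Together they made up 56.6% and 55.4% of the Ty1 sum in the ΔYGP1-labelled libraries and 58.0% and 49.7% in the BGL-6Kl libraries. Per kilobase of frame, YNL054W-B stood at 374 normalised reads in the ΔYGP1-labelled strain and 71.9 in BGL-6Kl, YMR045C at 248 and 51.1, and YJR027W at 139 and 27.8.

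Most of the other abundant Ty1 Gag-Pol frames showed fold changes of similar or larger size. YHR214C-B had 436 and 373 normalised reads in the ΔYGP1-labelled libraries, against 113 and 47.7 in those of BGL-6Kl (5.04-fold, adjusted p = 5.77e-08 from the authors' deposited table). YDR210C-D had 396 and 355, against 52.8 and 29.1 (9.18-fold, adjusted p = 1.33e-12 from the authors' deposited table). Its share of the Ty1 sum was 5.25% and 5.28% in the ΔYGP1-labelled libraries and 2.79% and 2.95% in the BGL-6Kl libraries, and it carried the smallest adjusted p of any member. YLR227W-B had 375 and 349 in the ΔYGP1-labelled libraries, against 60.6 and 37.4 in BGL-6Kl (7.39-fold, adjusted p = 1.2e-10 from the authors' deposited table). YGR161C-D had 318 and 325, against 56.3 and 43.6 (6.44-fold, adjusted p = 4.55e-09 from the authors' deposited table). YNL284C-B, in which 25.1% of stretches are unique, had 297 and 245 in the ΔYGP1-labelled libraries, against 83.1 and 56.0 in BGL-6Kl (3.89-fold, adjusted p = 2.7e-05 from the authors' deposited table). YER160C, with no unique 100-base stretch, had 261 and 294, against 42.4 and 21.8 (8.64-fold, adjusted p = 2.91e-10 from the authors' deposited table). All 6 frames separated the strains. The fold change was 3.89 in the frame with the most unique 100-base stretches and 8.64 in the one with no such stretch. YDR210C-D, next in unique sequence among the 6 (8.76% of stretches), had the largest fold change of the 6, 9.18.

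**Figure D5:**
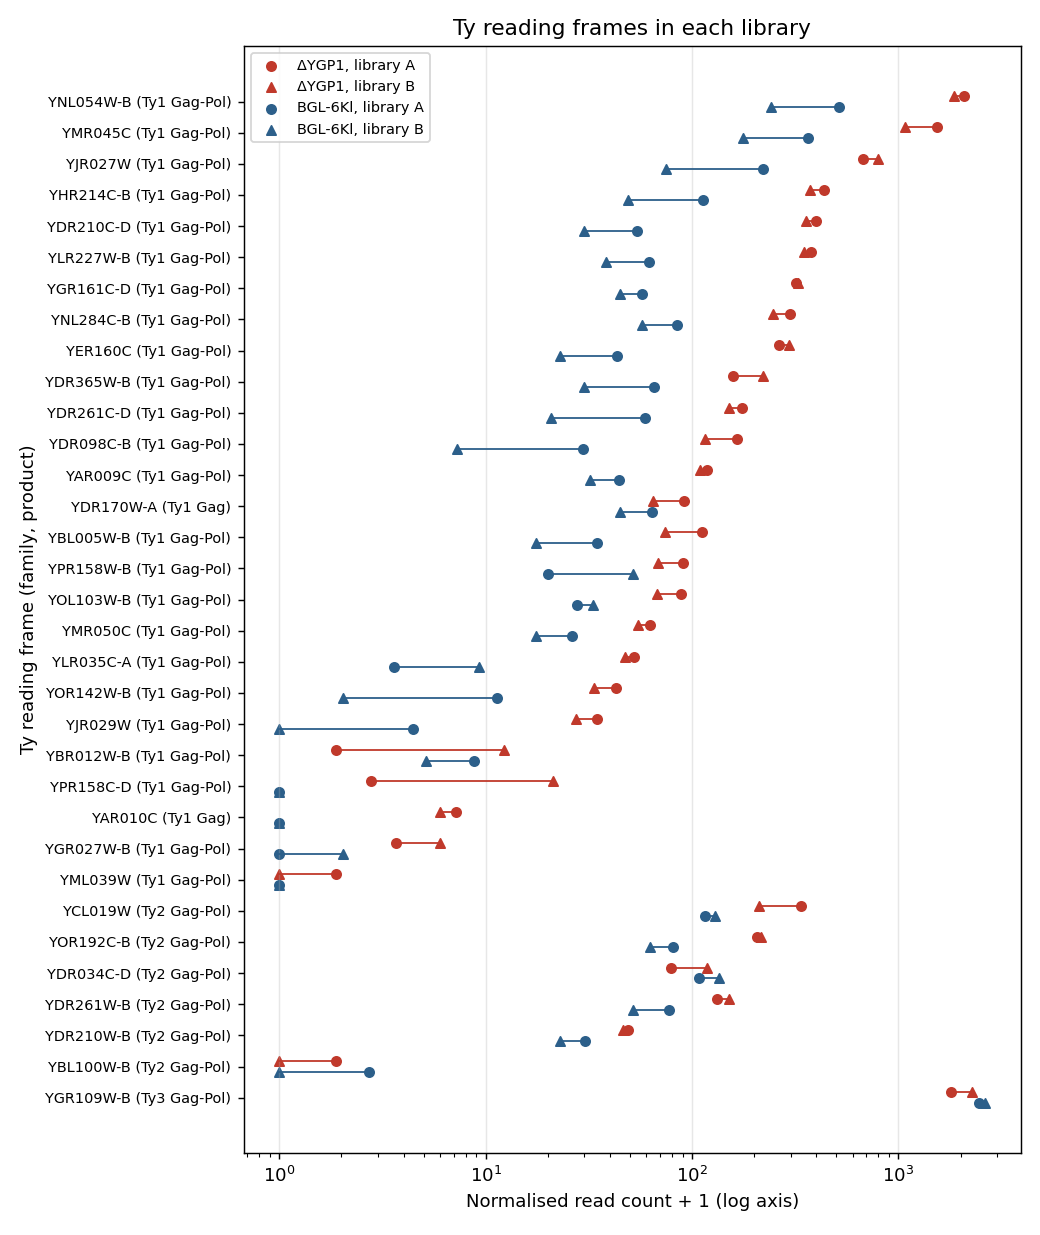
Normalised read count plus 1 (x axis, log scale) of each member (rows) in ΔYGP1-labelled libraries A and B and BGL-6Kl libraries A and B, grouped by family and ordered by level. The ΔYGP1-labelled points both lie to the right of the BGL-6Kl points for 28 of 33 members. The parental pair is wide for many Ty1 frames, with A (circles) mostly to the right of B (triangles).

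The next 5 Ty1 Gag-Pol frames by level were also called higher. YDR365W-B had 157 and 219.6 normalised reads in the ΔYGP1-labelled libraries, against 64.1 and 29.1 in BGL-6Kl (4.05-fold, adjusted p = 0.000617 from the authors' deposited table). YDR261C-D, a shorter frame, had 173 and 149, against 58.0 and 19.7 (4.15-fold, adjusted p = 0.000306 from the authors' deposited table). YDR098C-B had 164 and 114, against 28.6 and 6.23 (8.01-fold, adjusted p = 7.87e-06 from the authors' deposited table). In these 3 frames the parental libraries were more than 2-fold apart, with A above B each time. YAR009C, which is truncated, had 117 and 108 in the ΔYGP1-labelled libraries, against 43.3 and 31.1 in BGL-6Kl (3.03-fold, adjusted p = 0.0126 from the authors' deposited table), the smallest fold of the called Ty1 frames. YBL005W-B had 110.2 and 72.8, against 33.8 and 16.6 (3.63-fold, adjusted p = 0.0072 from the authors' deposited table). Each of the 5 separated the strains.

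The largest called fold change, that of YJR029W, and those of YLR035C-A and YOR142W-B stood on few parental reads. YJR029W had 33.8 and 26.4 normalised reads in the ΔYGP1-labelled libraries, against 3.46 and 0 in BGL-6Kl, which is 38 and 21 reads against 4 and 0 (17.4-fold, adjusted p = 0.00511 from the authors' deposited table). YLR035C-A, which lies in no annotated element, had 51.6 and 46.4, against 2.60 and 8.30 (8.99-fold, adjusted p = 0.00151 from the authors' deposited table), with library B the higher of the parental pair. YOR142W-B had 41.8 and 32.6, against 10.4 and 1.04 (6.51-fold, adjusted p = 0.0216 from the authors' deposited table). All 3 separated the strains, but YJR029W and YOR142W-B have no unique 100-base stretch, so at that length their reads cannot be told from those of other copies. Another 3 members had reads only in the ΔYGP1-labelled libraries. YPR158C-D had 2 and 16 reads there and YAR010C, a Gag frame, 7 and 4, against 0 in both BGL-6Kl libraries, so they were at least 6.61-fold and at least 4.04-fold higher, taking 3 reads over both BGL-6Kl libraries as the floor. YML039W had 1 read in the ΔYGP1-labelled strain and 0 in BGL-6Kl. YGR027W-B had 7 reads in the ΔYGP1-labelled strain against 1 in BGL-6Kl, a ratio of 7.72 with an exact 95% interval of 0.991 to 348 that covers counting error only. None of these last 4 passed the authors' test.

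The Ty1 frames that did not pass included some at moderate counts. YPR158W-B had 89.8 and 67.8 normalised reads in the ΔYGP1-labelled libraries, against 19.0 and 50.9 in BGL-6Kl (2.25-fold, adjusted p = 0.0874 from the authors' deposited table). YOL103W-B had 87.1 and 66.5, against 26.8 and 32.2 (2.60-fold, adjusted p = 0.0581), and YMR050C had 61.3 and 54.0, against 25.1 and 16.6 (2.76-fold, adjusted p = 0.0937), both from the authors' deposited table. These 3 separated the strains without passing. The Gag frame YDR170W-A, the member with the most unique sequence (70.8%), had 90.7 and 64.01 in the ΔYGP1-labelled libraries, against 63.2 and 43.6 in BGL-6Kl (1.45-fold, adjusted p = 0.514 from the authors' deposited table). The most distinguishable Ty1 member thus had one of the smallest Ty1 fold changes. The 2 Gag frames summed gave a log2 ratio of 0.64, but that sum is nearly all YDR170W-A, which lies in no annotated element. The other, YAR010C, had 11 reads in the ΔYGP1-labelled strain and 0 in BGL-6Kl. A Gag frame not on the list, YLR256W-A, was 6.25-fold higher, so the sum does not describe Gag frames in general. YBR012W-B had 0.889 and 11.3 in the ΔYGP1-labelled libraries, against 7.79 and 4.15 in BGL-6Kl (1.02-fold, adjusted p = 0.992 from the authors' deposited table), with overlapping libraries.

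Grouped by the start window, every Ty1 frame with a Ty2-like window was called. The windows of 7 Ty1 frames were nearer to that of the Ty2 frame YOR192C-B (93.7% to 95.7% identity) than to that of YMR045C, and all 7 were called higher, with log2 fold changes of 2.02 to 4.12 and a median of 2.89. Of 7 Ty1 frames with a YMR045C-like window that holds TGAAACA, 6 were called, with a median of 2.28. Of 9 such frames without TGAAACA, 2 were called, and 4 of the 9 had a mean below 10 over both strains. Their median was 2.89 with frames lacking parental reads ranked highest, and 2.17 over 8 frames with those at their lower bound and YML039W left out. Over all features 9.65% were called higher. Of the 6 Ty2 frames, whose windows resemble those of the first group, 2 were called. The groups were formed after the calls were known and no test was made of their difference.

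Within Ty2, the 2 frames that the authors called were those with the highest means over both strains. YCL019W had 335 and 211 normalised reads in the ΔYGP1-labelled libraries, against 114 and 128 in BGL-6Kl (2.26-fold, adjusted p = 0.046 from the authors' deposited table). YOR192C-B had 205 and 216, against 79.7 and 61.2 (2.99-fold, adjusted p = 0.00217 from the authors' deposited table). Both separated the strains, and they were the 2 Ty2 members called by the authors' adjusted p. The limma fit also called YDR261W-B (log2 fold change 1.16 on the log2(value + 1) scale, adjusted p = 0.0272). YDR261W-B had 132 and 149 in the ΔYGP1-labelled libraries, against 76.2 and 50.9 in BGL-6Kl (2.21-fold, adjusted p = 0.063), and YDR210W-B had 48.0 and 45.2, against 29.4 and 21.8 (1.82-fold, adjusted p = 0.408), both from the authors' deposited table. YDR034C-D, at a similar level, had 78.2 and 116.7 in the ΔYGP1-labelled libraries, against 106.5 and 133.9 in BGL-6Kl (0.811-fold, adjusted p = 0.669 from the authors' deposited table). Its libraries overlapped. YBL100W-B had 1 read in the ΔYGP1-labelled strain and 2 in BGL-6Kl, so 4 of the 6 Ty2 frames separated the strains upward and 2 overlapped. Over all recovered features 33.2% were separated upward.

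The Ty3 frame YGR109W-B had the highest strain mean of any member in both strains and was not called in either direction (adjusted p = 0.432 from the authors' deposited table). Per kilobase it stood at 438 normalised reads in the ΔYGP1-labelled strain and 548 in BGL-6Kl, against 374 and 71.9 for YNL054W-B, the highest Ty1 frame. It is 92.7% identical to its closest copy, with their difference in length counted, and 57.0% of its 100-base stretches are unique. In YNL054W-B 22.5% are unique, so the levels of these frames may not have been counted alike. Ty3 transcription is known to be induced by mating pheromone through Ste12, and the list of pheromone response targets is given below.

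Another 7 Ty reading frames of the table were not on the list. YLR256W-A, a Ty1 Gag frame, had 94.2 and 62.8 normalised reads in the ΔYGP1-labelled libraries, against 19.9 and 5.19 in BGL-6Kl (6.25-fold, adjusted p = 0.000693 from the authors' deposited table), and so was called like most Ty1 Gag-Pol frames. The Ty2 frame YOR343W-B had 47.1 and 36.4, against 19.9 and 32.2 (1.60-fold, adjusted p = 0.502 from the authors' deposited table), and YLR410W-B had 8 reads in the ΔYGP1-labelled strain against 1 in BGL-6Kl (ratio 8.82, exact 95% interval 1.18 to 391). Ty4, a low-copy family, had 4 frames, of which 0 were called and 4 separated the strains upward, as did 33.2% of all recovered features. Their sum was 361 and 384 in the ΔYGP1-labelled libraries, against 249 and 205 in BGL-6Kl, a ratio of means of 1.64 (log2 0.71). YJL113W had 207 and 198 in the ΔYGP1-labelled libraries, against 124 and 132 in BGL-6Kl (1.59-fold, adjusted p = 0.225 from the authors' deposited table). YHL009W-B had 118.2 and 162 in the ΔYGP1-labelled libraries, against 117.7 and 62.3 in BGL-6Kl (1.56-fold, adjusted p = 0.436 from the authors' deposited table). YJL114W had 24.9 and 21.3, against 7.79 and 11.4 (2.41-fold, adjusted p = 0.379 from the authors' deposited table). YPL060C-A had 14 reads in the ΔYGP1-labelled strain and 0 in BGL-6Kl, at least 5.14-fold higher. The ΔYGP1-labelled libraries lay above those of BGL-6Kl in each Ty4 frame, none of which was called. In YHL009W-B the margin was narrow, with library A at 118.2 in the ΔYGP1-labelled strain and 117.7 in BGL-6Kl.

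Genes beside the elements were called about as often as other genes. In R64 the members lie in 30 annotated elements, 23 of which have a tRNA gene within 1000 bases (median gap 190.5 bases). Of the 52 nearest flanking protein-coding genes in the table, 4 were called higher and 7 lower, with a median log2 fold change of 0.01, against 9.65% and 10.3% called over all features. The risers were LEU2 (YCL018W), an enzyme of leucine synthesis, with means of 1751 in the ΔYGP1-labelled strain and 735 in BGL-6Kl, YCL021W-A on the other side of the same Ty2 element, that of YCL019W, (128 and 36.3), the glucanase gene EXG2 (562 and 241) and RBH2 (499 and 137). The strongest fall was that of BNA1, a gene of NAD synthesis, with 282 in the ΔYGP1-labelled strain and 1803 in BGL-6Kl (log2 fold change -2.68, adjusted p = 1.13e-14 from the authors' deposited table). BNA1 lies 791 bases before the start of YJRWTy1-1 and 6379 bases before that of a further Ty1 element, YJRWTy1-2. RBH2, which rose, lies 5574 bases beyond the end of YJRWTy1-1, on the side of YJRWTy1-2.

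Of 26 genes listed as activators of Ty1 transcription, 2 rose and 3 fell, with a median log2 fold change of -0.12. Over all features 9.65% were called higher and 10.3% lower, so the list was called about as often as other features. STE12, the mating factor, had means of 132 in the ΔYGP1-labelled strain and 133 in BGL-6Kl (log2 fold change -0.01, adjusted p = 1), and its partner TEC1 had 1449.8 and 1589 (-0.13, adjusted p = 0.845), both from the authors' deposited table. The risers were STE20, a kinase upstream of Ste12 (log2 fold change 0.74, adjusted p = 0.0494 from the authors' deposited table), and SPT5, a transcription elongation factor (0.75, adjusted p = 0.0408 from the authors' deposited table). TYE7 fell, with a log2 fold change of -1.27 (1369 in the ΔYGP1-labelled strain and 3310.0 in BGL-6Kl, adjusted p = 0.000158 from the authors' deposited table). RAP1 had -0.97 (adjusted p = 0.00557) and GCN4, the amino acid starvation factor, -0.77 (29530.1 in the ΔYGP1-labelled strain and 50327 in BGL-6Kl, adjusted p = 0.0201), both from the authors' deposited table.

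Lists for later steps of the Ty1 life cycle are read against the same shares of all features, 9.65% higher and 10.3% lower. Of 30 genes known to restrict Ty1 mobility, 0 rose and 2 fell (median 0.14): RRM3, a DNA helicase, at -1.36 (adjusted p = 0.000312) and RAD6, a ubiquitin-conjugating enzyme, at -0.76 (adjusted p = 0.0457), both on the log2 scale in the authors' deposited table. Of 22 genes for RNA and particle cofactors, 1 rose and 4 fell (median -0.05). SEC65, of the signal recognition particle, had a log2 fold change of 0.85, while SRP68 and SRP21 of the same particle had -0.95 and -0.79, the debranching enzyme gene DBR1 -0.89 and the deadenylase gene POP2 -0.79 (adjusted p between 0.019 and 0.0467 from the authors' deposited table). Of 26 genes of the machinery that guides Ty integration, 1 rose and 0 fell (median -0.11). That gene was BRF1, a subunit of TFIIIB (log2 fold change 1.03, adjusted p = 0.00464 from the authors' deposited table). RPC40, the polymerase subunit that Ty1 integrase binds, had means of 204 in the ΔYGP1-labelled strain and 433 in BGL-6Kl (-1.08, adjusted p = 0.0712 from the authors' deposited table).

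Targets of the pathways that share Ste12 and Tec1 with Ty1 are also set beside the 9.65% of features called higher and 10.3% called lower. Of 13 filamentation pathway targets, TEC1 again among them, 1 rose and 2 fell (median 0.21). MSB2, a signalling mucin, had a log2 fold change of 0.81 (adjusted p = 0.0461), while CWP1, a cell wall mannoprotein, had one of -2.99 (adjusted p = 4.62e-21) and the stress gene DDR48 had a log2 fold change of -2.50 (adjusted p = 0.000756), all from the authors' deposited table. Of 22 pheromone response targets, 2 rose and 0 fell (median 0.16). They were FIG2, a cell wall adhesin, with means of 1039 in the ΔYGP1-labelled strain and 397 in BGL-6Kl (log2 fold change 1.39, adjusted p = 0.000201), and FUS1, needed for cell fusion, with 257 and 127 (1.02, adjusted p = 0.0278), both from the authors' deposited table. Over the 6 lists, medians lay between -0.12 and 0.21, against 0.02 for all features.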

How the data were processed

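Total RNA was extracted with TRIzol and libraries were made by standard Illumina methods, per the labels' protocols. Neither aligner and counter nor build, strandedness or the test behind the p-values is given in the sources used here. The authors deposited, per strain, a mean normalised read count (a normalised signal, per the file headers). They also deposited a log2 fold change of ΔYGP1 over BGL-6Kl. The deposited p-value, adjusted p-value and call per feature are the main result, because the table gives strain means. A mean carries no spread of its own. Each strain has 2 libraries, so any p-value here can rest only on the spread between these. In the limma fits below, that spread is partly shared over features.

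Each mean is a sum of whole reads of 2 libraries times a step per library. Pairs of whole reads matching the deposited value within 0.55 of its last digit were listed. They were unique for 95.6% of features in the ΔYGP1-labelled strain and 98.2% in BGL-6Kl, with size factors of 1.125 and 0.7968 for libraries A and B of the ΔYGP1-labelled strain and 1.155 and 0.9636 for those of BGL-6Kl. Of the features above a mean of 20000, 0 of 161 and 81 of 195 were unique in these strains.

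As an alternative, limma 3.58.1 in R 4.3.3 (intensity trend, Benjamini-Hochberg adjustment, 2-sided) was run on log2(normalised read count + 1), over 6115 features whose mean reached 1, which understates the change of low features. It was tried on simulated counts with a single assumed spread, in which only features of higher mean were changed. That trial does not show how the fit performs on Ty frames with few reads or with parental libraries far apart. In the fits that left out a ΔYGP1 library, 30 features with no residual spread were dropped and 29 members were tested. In the fits that left out a BGL-6Kl library, all 6115 features were tested, 31 members among them. Sequence, motifs, neighbours and names came from the R64 genome and annotation (RefSeq), which need not be the authors' build. Intervals and floors cover counting error only. Members and the 6 gene lists were chosen with earlier results of these data known. Values are given in full for the 3 most abundant members of each family, the 4 largest rises and falls and every called member. Of each list, up to 4 called genes with the smallest adjusted p are named.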

Additional observations from a re-analysis of the deposited data

How the results depend on the processing

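The count of members called higher was 19 by the authors' adjusted p below 0.05, 16 below 0.01, 19 with at least a 2-fold change, 22 of 31 tested with limma, 16 with limma without an intensity trend (an alternative chosen after seeing the data) and 16 to 21 in limma fits with a library left out. In those fits 1 strain has a lone library, which is assumed to vary like the other strain's 2. No member was called lower in any of these. Over all features limma called 847 higher (13.9%) and 910 lower (14.9%), 718 in all without the trend and 835 to 1950 with a library left out. The median log2 fold change of members was 2.05. With a pseudocount of 10 it was 1.46, and with a library left out 1.74 to 2.70, the highest without BGL-6Kl library A. The Ty1 log2 ratio of 2.31 was 0.64 with Gag frames only, a sum that is nearly all the single frame YDR170W-A. Without the 3 most abundant Ty1 frames (also chosen after seeing the data) the ratio was 2.28. With a library left out it was 1.92 to 2.86, the highest again without BGL-6Kl library A. The Ty2 ratio of 0.94 was 1.09 when scaled to the same total, a scaling that adds 0.15 to every log2 fold change, and 0.88 to 0.99 with a library left out. The Ty3 ratio of -0.32 ranged from -0.50 to -0.17 with a library left out. YBR012W-B, at 0.03, turned to -0.48 with limma, and with limma and a library left out ranged from -1.83 (without ΔYGP1 library B) to 0.87 (without ΔYGP1 library A), with -0.10 without BGL-6Kl library A and -0.87 without BGL-6Kl library B, none of them called. In the limma fits YOR142W-B (2.80), YBL005W-B (1.58), YJR029W (3.69) and YCL019W (0.80) were not called without ΔYGP1 library A, YOR142W-B (1.74) and YBL005W-B (1.38) without BGL-6Kl library B, and YOR142W-B (3.15) without ΔYGP1 library B, against authors' log2 fold changes of 2.70, 1.86, 4.12 and 1.17. With all 4 libraries limma added YOL103W-B (1.34), YMR050C (1.45) and YDR261W-B (1.16), and with a library left out YPR158W-B (1.98, without BGL-6Kl library B). At an adjusted p below 0.01, called list members were 0 higher for Ty1 activators, 1 lower for restriction factors, 0 higher and 0 lower for cofactors, 0 higher for filamentation targets and 1 higher for pheromone targets. The cause of these changes was not tested, apart from the stricter threshold. No paired analysis was possible because the deposited columns are strain means that carry no replicate numbers. Depth limits the 6 members with a mean below 10, and shared sequence limits every value of a single copy.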
